A study of Mus musculus with 6 samples.

Results

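The genes described here build, crosslink and anchor the actin cytoskeleton of RAW264.7 macrophages, together with the transcription factor SRF and its cofactors. They are 48 genes, taken by gene name from 54429 gene symbols in the deposited table, and were selected for their function with earlier results of the same comparison known. Of the 48, 46 had the mean level of at least 1 FPKM that testing required, out of 11708 genes tested. FPKM is the count scaled to gene length and to library size, so levels can be compared between genes. Ilk and Cnn2 fell under that level.

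RAW264.7 is a mouse macrophage line that grew from a virus-induced tumour and can form osteoclasts. All libraries came from cells cultured for 3 d. In Gel/S, the static control, the cells were on GelMA, a gelatin carrying methacryloyl groups that sets into a hydrogel. In C/D, the dynamic group, the material was GelMA with PEDOT:PSS, a conducting polymer blend, and PLLA/PDA, and ultrasound at 48 kHz was given for 5 min. Both groups are the same line, with no other genotype named and 3 libraries each. Material and ultrasound change together, so their effects cannot be told apart. The labels do not state whether replicates were separate cultures, and the p-values measure the spread between these libraries, which may be technical. The treated columns of the table carry the letters US, read here as ultrasound and hence as C/D. Every direction given below rests on that reading.

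Actin exists as monomers and as filaments. Monomer-binding proteins such as thymosins and profilin hold or deliver subunits, the Arp2/3 complex and formins start new filaments, crosslinkers bundle them, and talin, vinculin and zyxin tie them to integrins at adhesion sites. The pathway feeds back on transcription. Free actin monomer holds the cofactors MRTF-A and MRTF-B (genes Mkl1 and Mkl2) in the cytoplasm, and when monomer is used up they enter the nucleus and act with SRF, which binds CArG boxes and drives many actin and adhesion genes, its own gene included. In macrophages these proteins carry migration, phagocytosis and podosomes.

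CArG boxes near the start sites are shown first because SRF, itself a member, is known to bind them; whether SRF regulates the members in these cells was not measured. Promoter windows of 300 bases (250 before and 50 after each annotated start; RefSeq, GRCm38.p6) were found for 44 of the 48 genes and searched for the strict CArG form of 10 bases, CC, then A or T bases only, then GG, whose reverse complement has the same form. A box stood in a window of 5 of the 44 genes, against 488 of 27025 genes of the whole table of promoters (1.81%). Any box of Diaph1 or Rock1 was left out of the members' count but not of the whole table's. The 5 is therefore a minimum. The members were picked for functions that include being known SRF targets, so nothing is read from this contrast. Srf has 2 boxes, beginning 82 and 62 bases before the start, at chr17:46556185-46556274 on the minus strand. Actg1 has 1 box, 90 bases before its start, at chr11:120348546-120348615 on the minus strand. Vcl has 1 box, 227 bases before its start, at chr14:20929148-20929210 on the plus strand. Myl6 has 1 box, 50 bases before its start, at chr10:128493020-128493089 on the minus strand, and Cnn2 has 1 box, 56 bases before its start, at chr10:79988514-79988583 on the plus strand. Capitals mark the boxes, with up to 30 bases on either side:
Srf: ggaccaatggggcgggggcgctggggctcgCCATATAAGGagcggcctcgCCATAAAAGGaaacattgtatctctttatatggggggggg
Actg1: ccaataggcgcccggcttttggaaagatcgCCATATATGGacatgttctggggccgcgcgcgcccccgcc
Vcl: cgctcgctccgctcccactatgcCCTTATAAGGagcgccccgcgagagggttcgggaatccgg
Myl6: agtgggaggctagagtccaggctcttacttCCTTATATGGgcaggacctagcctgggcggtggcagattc
Cnn2: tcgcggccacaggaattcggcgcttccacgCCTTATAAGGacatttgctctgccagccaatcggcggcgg
Of these 5 genes, Srf, Actg1 and Vcl fell in C/D, Myl6 was not called and Cnn2 was not tested. Among the 24 members that fell, 22 had a window and at least 3 of the 22 held a box, any box of Diaph1 being left out. A match of letters is not a binding site, and boxes outside these windows were not looked for.

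The libraries held 12818831 to 16525699 counts each. The first principal component of all tested genes took 55.8% of the variance and separated the groups, with Gel/S 1 furthest out at -34.6 against -11.3 and -17.7 for Gel/S 2 and Gel/S 3 and 18.2 to 25.6 for C/D. All 10 macrophage markers were abundant enough to test. Of these 1 fell and 0 rose, where 13.9% and 13.1% of all tested genes did. The number that fell was 3 without Gel/S 1 and 4 without Gel/S 2 or with no filter on low values. It was 3 with DESeq2, filterByExpr or limma on TPM. With DESeq2, DESeq2's size factors in edgeR, no filter, or Gel/S 2 left out, 1 rose. The summed FPKM of the 10 markers ran from 15344 to 15433 in Gel/S and from 13054 to 13186 in C/D. Lyz2 made up most of this sum, with a mean of 10197 FPKM in Gel/S and 8024 in C/D. Tyrobp (1568 and 1980), Fcgr3 and Itgam had higher means in C/D, and the other markers had lower ones. Markers of fibroblasts and smooth muscle, cells rich in SRF target transcripts, summed to 1.34 to 1.63 FPKM in Gel/S and 1.28 to 1.36 in C/D, with Col1a2, Col3a1, Dcn and Lum at 0 in every library.

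Many of the structural genes of the actin network had lower FPKM in C/D libraries than in Gel/S libraries. A gene was called when its adjusted p in the edgeR quasi-likelihood test was under 0.05. Of the 46 tested members, 24 fell (52.2%), 1 rose (2.17%) and 21 were not called. Over all tested genes 27.0% were called, 13.9% fell and 13.1% rose. These shares are also the background for each count by role or by list below. Since the members were chosen with this contrast known, the counts are a description and nothing is read from them. The median log2 fold change of the tested members was -0.31, against 0.01 for all tested genes, and 37 of 46 had a negative value. Fallen members ranged from -0.26 for Pxn to -1.23 for Vcl, with a median of -0.62. In 27 members every C/D library lay under every Gel/S library and in 1 member the reverse held; over all tested genes these shares were 27.1% and 19.1%. Such values are relative to the rest of the mRNA, so less RNA of a gene per cell and fewer cells holding it cannot be told apart.

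The members are abundant genes. Their median level in Gel/S was 48.7 FPKM against 7.52 for all tested genes, and 23 of 46 ranked within the top 1000. Together the members took 2.17%, 2.25% and 2.18% of the counts of Gel/S 1, 2 and 3 and 1.77%, 1.90% and 1.90% of those of C/D 1, 2 and 3. The groups did not overlap in this share.

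**Figure D1:**
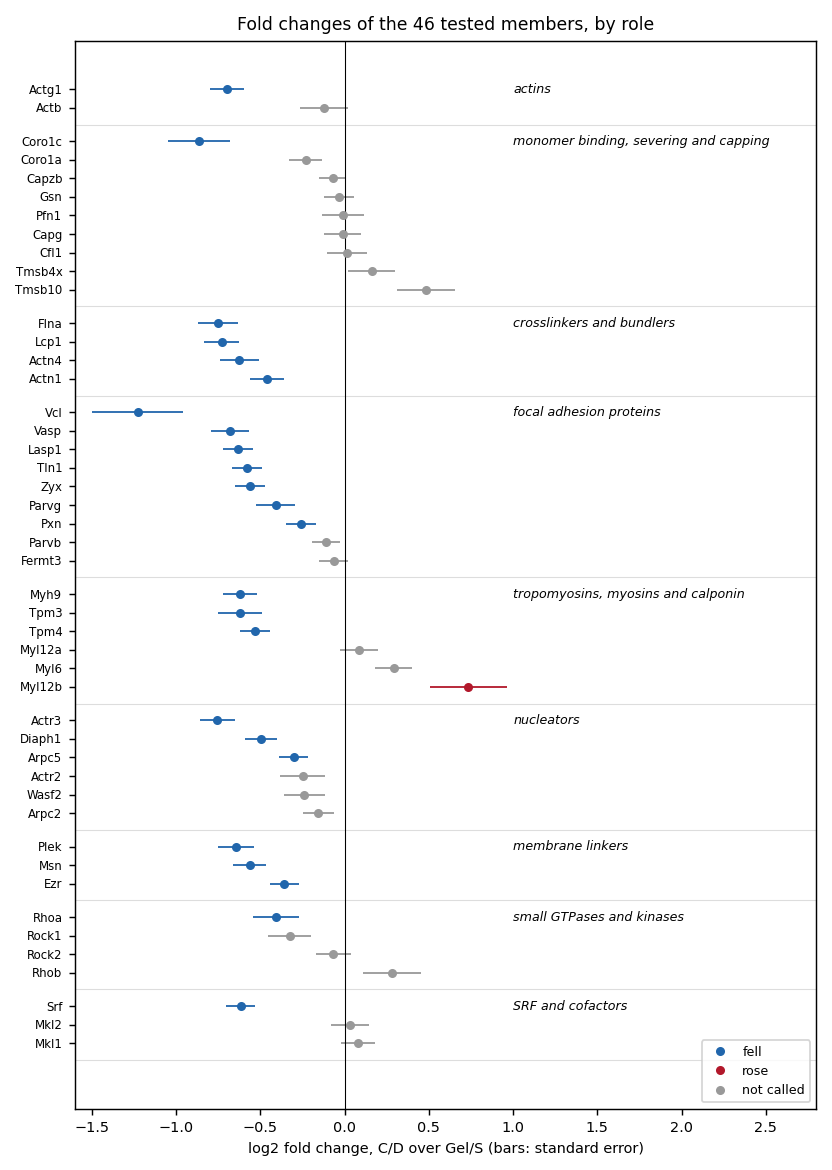
Log2 fold change (C/D over Gel/S, x axis; bars are standard errors) of the 46 tested members, grouped by role and coloured by call. Of the 46 genes, 24 fell and 1 rose; all crosslinkers and membrane linkers lie left of 0 and are called, while 8 of the 9 genes for monomer binding, severing and capping are not called, among them Coro1a at -0.23 and Tmsb10 at 0.48.

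The mRNA of SRF itself was lower in C/D, and the genes of its cofactors were not called. Srf (chromosome 17, 46548329 to 46556175, minus strand, GRCm38) measured 20.2, 19.0 and 18.5 FPKM in Gel/S 1 to 3 and 12.6, 12.1 and 11.8 in C/D 1 to 3. The groups were far apart relative to their spread (log2 fold change -0.62, SE 0.086, adjusted p = 0.000731). Mkl1, which encodes the cofactor MRTF-A, measured 9.41, 7.15 and 8.38 FPKM in Gel/S and 8.41, 8.39 and 8.73 in C/D (log2 fold change 0.08, SE 0.101, adjusted p = 0.588). Mkl2, which encodes MRTF-B, measured 1.93, 1.91 and 1.93 FPKM in Gel/S and 1.99, 1.96 and 1.77 in C/D (log2 fold change 0.03, SE 0.111, adjusted p = 0.848). For both cofactors the C/D libraries lay among or close to the Gel/S libraries.

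Of the 2 cytoplasmic actins 1 fell. Actg1, gamma actin (chromosome 11, 120345690 to 120348542, minus strand), measured 243, 195 and 203 FPKM in Gel/S and 122, 129 and 132 in C/D. The highest C/D library was below the lowest Gel/S library, which gave a log2 fold change of -0.70 (SE 0.1, adjusted p = 0.000845). Actb, beta actin (chromosome 5, 142903115 to 142906754, minus strand), was among the most abundant members with 1147, 1653 and 1382 FPKM in Gel/S and 1138, 1327 and 1269 in C/D. Its groups overlapped and it was not called (log2 fold change -0.12, SE 0.141, adjusted p = 0.539). As a share of the Actb level in the same library, Actg1 stood at 21.2%, 11.8% and 14.7% in Gel/S and 10.7%, 9.72% and 10.4% in C/D, so every C/D library was under every Gel/S library. The Gel/S values spread widely, and Gel/S 1, with the lowest Actb and the highest Actg1 of its group, set the top of that range. Close copies elsewhere in the genome match 57.8% of the Actg1 transcript, but they held counts equal to only 1.69% of its own.

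All 4 crosslinker genes fell, and their log2 fold changes had a median of -0.68. Lcp1, L-plastin, the bundling protein of leukocytes (chromosome 14, 75131101 to 75230842, plus strand), measured 260, 213 and 222 FPKM in Gel/S and 133, 133 and 141 in C/D (log2 fold change -0.73, SE 0.105, adjusted p = 0.000864). Flna, filamin A, which joins filaments at wide angles (chromosome X, 74223461 to 74249820, minus strand), measured 50.7, 38.3 and 35.9 FPKM in Gel/S and 23.6, 23.2 and 25.1 in C/D (log2 fold change -0.75, SE 0.119, adjusted p = 0.00138). Actn4, alpha-actinin 4, measured 50.7, 37.3 and 43.0 FPKM in Gel/S and 24.2, 28.9 and 29.2 in C/D (log2 fold change -0.63, SE 0.116, adjusted p = 0.00313). In each of the 3 genes the C/D libraries were close together and below all Gel/S libraries, and Gel/S 1 was the highest. Actn1, the paralog of Actn4, also fell, with 12.7 ± 1.53 FPKM in Gel/S and 8.93 ± 0.586 in C/D (SD, n = 3; log2 fold change -0.46, edgeR adjusted p = 0.00703).

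Among the focal adhesion genes 7 of the 9 tested fell, 2 were not called and the median was -0.56. Lasp1, a LIM and SH3 protein of adhesions and podosomes, measured 56.6, 50.2 and 52.9 FPKM in Gel/S and 30.8, 34.9 and 34.4 in C/D (log2 fold change -0.63, SE 0.0897, adjusted p = 0.000831). Tln1, talin, which binds and activates integrins (chromosome 4, 43531519 to 43562691, minus strand), measured 82.7, 79.1 and 73.3 FPKM in Gel/S and 49.5, 52.6 and 50.4 in C/D (log2 fold change -0.58, SE 0.0904, adjusted p = 0.00131). Zyx, zyxin, which gathers at filaments under tension (chromosome 6, 42349630 to 42360213, plus strand), measured 9.64, 9.80 and 9.47 FPKM in Gel/S and 6.05, 6.14 and 6.82 in C/D (log2 fold change -0.56, SE 0.0891, adjusted p = 0.00141). These were the adhesion genes with the smallest adjusted p, and in each of them the gap between groups exceeded the spread within either group.

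Vcl, vinculin, which reinforces the link between talin and actin (chromosome 14, 20929398 to 21033676, plus strand), had the lowest fold change of all tested members and is named for that, after its values were seen. It measured 5.34, 2.04 and 2.92 FPKM in Gel/S and 1.31, 1.56 and 1.37 in C/D (log2 fold change -1.23, SE 0.27, adjusted p = 0.00713). Gel/S 1 stood far above the other libraries, and without it the log2 fold change of Vcl was -0.77. Vcl kept its call without any 1 library (adjusted p up to 0.0437) but lost it with limma on log2(FPKM + 1) (adjusted p = 0.0535) and on log2(TPM + 1) (adjusted p = 0.0573). Exons of Ap3m1 overlap 25.5% of the exon bases of Vcl, and Ap3m1 itself fell (log2 fold change -0.23, adjusted p = 0.0449). Vasp, which extends filaments at adhesions, fell too (log2 fold change -0.68, adjusted p = 0.0018), as did Parvg, gamma-parvin, at -0.41 (adjusted p = 0.0242; -0.26 without Gel/S 1) and Pxn, paxillin, at -0.26 (adjusted p = 0.0464). Parvb, at -0.11 (adjusted p = 0.324), and Fermt3, the kindlin of blood cells, at -0.07 (adjusted p = 0.601), were not called. Ilk, integrin-linked kinase, ran from 0.281 to 0.456 FPKM in Gel/S and from 0.168 to 0.204 in C/D on only 6 to 20 counts per library. Exons of Taf10 and Rrp8 overlap 89.7% of the Ilk exon bases, so its level here is uncertain.

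**Figure D2:**
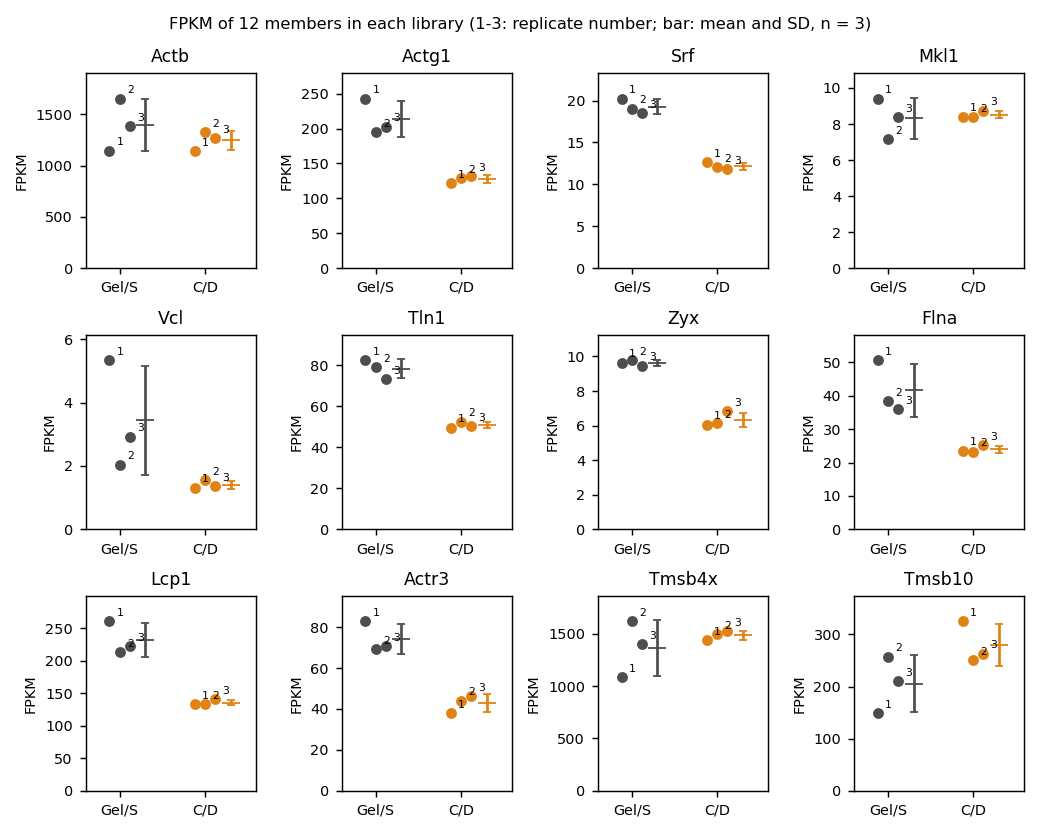
FPKM (y axis, from 0) of 12 members in the 3 Gel/S and the 3 C/D libraries; points are libraries with their replicate number and bars are the mean and SD. Srf, Actg1, Tln1, Zyx, Flna, Lcp1 and Actr3 form groups that do not overlap, Actb, Mkl1, Tmsb4x and Tmsb10 overlap, and the Vcl value of Gel/S 1 (5.34) lies far above its other libraries.

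Among the members, the myosin heavy chain gene and the tropomyosin genes Tpm3 and Tpm4 fell, and none of the 3 light chain genes did. Of 6 tested genes 3 fell, 1 rose and 2 were not called. Myh9, the heavy chain of non-muscle myosin IIA, measured 32.9, 25.4 and 27.7 FPKM in Gel/S and 17.7, 18.4 and 18.0 in C/D (log2 fold change -0.62, SE 0.1, adjusted p = 0.00145). Tpm4, a tropomyosin that coats filaments, measured 237, 207 and 213 FPKM in Gel/S and 150, 142 and 150 in C/D (log2 fold change -0.53, SE 0.0892, adjusted p = 0.00187). Tpm3, another tropomyosin, measured 48.8, 31.3 and 37.7 FPKM in Gel/S and 24.7, 25.4 and 24.2 in C/D (log2 fold change -0.62, SE 0.13, adjusted p = 0.00584). In all 3 the groups were apart and the C/D libraries nearly equal.

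The division of reads between Tpm3 and its near copy Tpm3-rs7 is uncertain, because 85.4% of the Tpm3 transcript lies in that copy, which was listed with 234% of the counts of Tpm3. Tpm3-rs7 went the same way, from 258 ± 14.7 FPKM in Gel/S to 166 ± 18.4 in C/D (SD, n = 3; edgeR adjusted p = 0.00226). The sum of both was 303, 276 and 311 FPKM in Gel/S and 170, 206 and 195 in C/D, and these sums did not overlap between groups.

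Myl12b, a regulatory light chain, was the 1 member that rose, and it is named for that. It measured 1.33, 0.985 and 1.65 FPKM in Gel/S and 1.78, 2.47 and 2.14 in C/D (log2 fold change 0.73, SE 0.226, adjusted p = 0.0321). Exons of AC154187.2 overlap 26.7% of the exon bases of Myl12b. Myl12b rests on 44 to 110 counts per library, lost its call when Gel/S 2, C/D 2 or C/D 3 was left out (adjusted p up to 0.132), and shares 16.3% of its transcript with Myl12a. Its far more abundant paralog Myl12a stood at 0.09 (adjusted p = 0.587), and Myl6, the essential light chain, at 0.29 (adjusted p = 0.0678). Cnn2, calponin 2, ran from 0.712 to 0.968 FPKM in Gel/S and from 0.946 to 1.16 in C/D on 28 to 46 counts and was not tested.

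Genes for filament nucleation fell in part: 3 of 6 fell (13.9% of all tested genes did), 3 were not called and the median was -0.28. Actr3, the Arp3 subunit of the Arp2/3 complex (chromosome 1, 125392905 to 125435727, minus strand), had the smallest adjusted p of all members, with 82.8 FPKM in Gel/S 1, 69.3 in Gel/S 2 and 70.6 in Gel/S 3 against 37.8, 44.1 and 46.2 in C/D (log2 fold change -0.75, SE 0.103, adjusted p = 0.000645). Near copies cover 91.5% of the Actr3 transcript but held counts equal to 1.33% of its own. Diaph1, a formin, measured 18.7, 14.6 and 16.1 FPKM in Gel/S and 10.8, 11.8 and 11.3 in C/D (log2 fold change -0.50, SE 0.0964, adjusted p = 0.00398). Arpc5, a small Arp2/3 subunit, measured 203, 203 and 206 FPKM in Gel/S and 153, 165 and 164 in C/D (log2 fold change -0.30, SE 0.0854, adjusted p = 0.0226). None of these 3 overlapped between groups. Actr2, the Arp2 subunit of the same complex, stood at -0.25 (adjusted p = 0.183) and Arpc2 at -0.16 (adjusted p = 0.221), and neither was called. Wasf2, the WAVE2 activator of Arp2/3, stood at -0.24 (adjusted p = 0.154).

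All 3 genes of the group named membrane linkers had lower mRNA levels in C/D. Msn and Ezr encode proteins that join the cortex to the membrane, and Plek was grouped with them. Plek, pleckstrin, a leukocyte and platelet substrate of protein kinase C, measured 139, 108 and 112 FPKM in Gel/S and 71.9, 72.5 and 78.7 in C/D (log2 fold change -0.64, SE 0.106, adjusted p = 0.0017). Msn, moesin, which links filaments to membrane receptors, measured 91.5, 79.8 and 81.6 FPKM in Gel/S and 49.96, 58.6 and 57.5 in C/D (log2 fold change -0.56, SE 0.0973, adjusted p = 0.0022). Ezr, ezrin, its paralog, measured 17.3, 15.8 and 17.6 FPKM in Gel/S and 12.7, 12.7 and 13.1 in C/D (log2 fold change -0.36, SE 0.0854, adjusted p = 0.0105). Msn was the more abundant mRNA of the pair in every library, and in all 3 genes the groups were apart.

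Of the genes for small GTPases and kinases that steer contractility, 1 of 4 fell, where 13.9% of all tested genes did. Rhoa, the GTPase that drives stress fibres and contractility, measured 31.8, 21.8 and 27.4 FPKM in Gel/S and 16.5, 20.8 and 22.0 in C/D (log2 fold change -0.40, SE 0.136, adjusted p = 0.0456). It was the 1 fallen member whose groups overlapped, with C/D 3 above Gel/S 2. Rock1, a kinase that raises myosin activity, measured 13.5, 9.64 and 12.1 FPKM in Gel/S and 7.69, 9.38 and 10.2 in C/D (log2 fold change -0.32, SE 0.128, adjusted p = 0.0773). Rhob, a GTPase of endosomes, measured 4.66, 4.64 and 5.64 FPKM in Gel/S and 4.39, 6.12 and 7.08 in C/D (log2 fold change 0.28, SE 0.172, adjusted p = 0.239). Rock2 stood at -0.07 (adjusted p = 0.661). Groups overlapped in all 4 genes.

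Genes that bind monomers or sever and cap filaments were mostly not called: 1 of 9 fell, where 13.9% of all tested genes did, 8 were not called and the median was -0.01. Coro1c, a coronin of the leading edge, measured 19.3 FPKM in Gel/S 1, 9.99 in Gel/S 2 and 11.9 in Gel/S 3 against 7.14, 7.32 and 7.47 in C/D (log2 fold change -0.86, SE 0.182, adjusted p = 0.00578). Without Gel/S 1 the log2 fold change of Coro1c was -0.55. Coro1a, the coronin of leukocytes, measured 306, 348 and 326 FPKM in Gel/S and 255, 281 and 274 in C/D, which did not overlap but missed the threshold (log2 fold change -0.23, SE 0.0971, adjusted p = 0.0945). Tmsb10, thymosin beta 10, which holds actin monomers, measured 149, 258 and 210 FPKM in Gel/S and 325, 250 and 263 in C/D (log2 fold change 0.48, SE 0.174, adjusted p = 0.0584). Gel/S 1 was lowest and C/D 1 highest for Tmsb10, and C/D 2 lay below Gel/S 2. Close copies match 59.9% of the Tmsb10 transcript and held counts equal to 4.26% of its own. Tmsb4x, the main thymosin of these cells, ran from 1085 to 1621 FPKM in Gel/S and from 1441 to 1528 in C/D (log2 fold change 0.16, adjusted p = 0.409). The remaining 5, the profilin gene Pfn1, the cofilin gene Cfl1, the capping genes Capg and Capzb and the severing gene Gsn, lay between -0.07 and 0.02. A value near 0 that was not called does not show that these genes are equal in the groups.

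**Figure D3:**
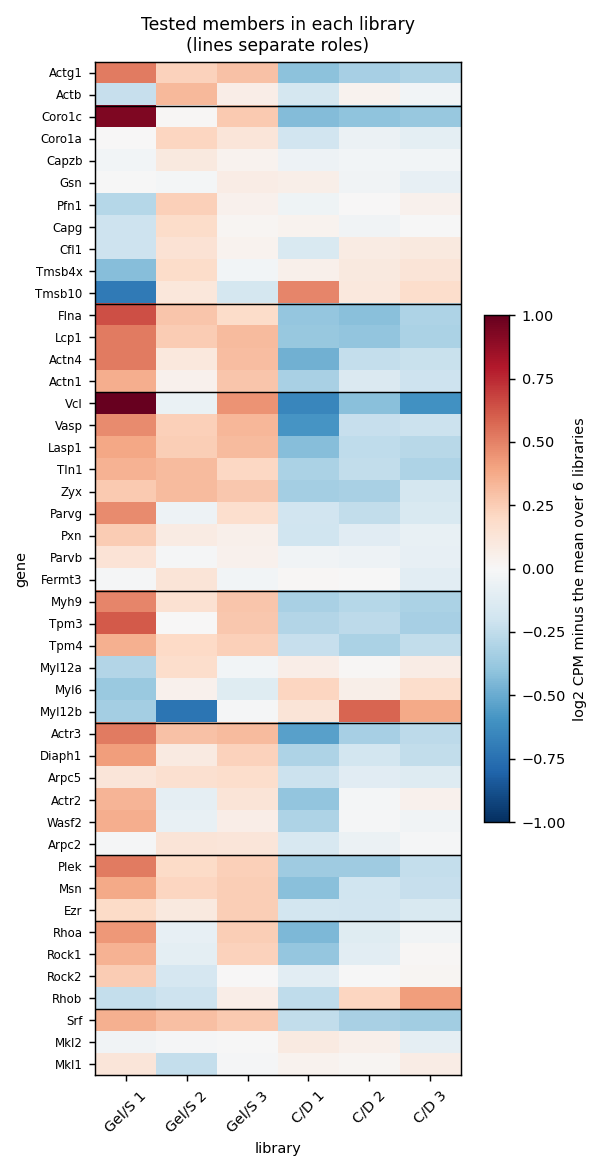
Log2 CPM (counts scaled to library size) of each of the 46 tested members (rows, grouped by role) in each of the 6 libraries (columns), minus the gene's mean over the libraries; the colour scale ends at -1 and 1, and Vcl in Gel/S 1 lies beyond it. Gel/S 1 holds many of the strongest colours, with Coro1c and Vcl highest and Tmsb10 lowest there.

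Libraries of one group were not equal for these genes. Gel/S 1 was the highest of the Gel/S libraries in 28 of the 46 tested members and in 21 of the 24 that fell, against 44.2% of all tested genes. C/D 1, the library with the fewest counts, was the lowest of the C/D libraries in 18 of the 24. Without Gel/S 1, 23 members fell, 22 of them among the 24, and the median of the members was -0.27. In that fit 13.4% of all tested genes fell. Over the 6 fits that each left out 1 library, 19 of the 24 fallen members kept their call in every fit. The other 5 lost it in some: Parvg (adjusted p up to 0.0953), Pxn (0.141), Arpc5 (0.0893) and Rhoa (0.176) in each fit without a C/D library and in the fit without Gel/S 3, Pxn and Rhoa also without Gel/S 1, and Ezr (0.0589) without C/D 2 or Gel/S 3.

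Fold changes varied with gene length across the whole table, and the members are longer than most genes tested. The median listed length of the tested members was 4451 bases, against 3763 for all tested genes. Across genes, the Spearman correlation of the log2 fold change with length was -0.48 over the 46 members and -0.21 over all tested genes, which share libraries and are not independent. Among the 23 shorter members 7 fell and 1 rose with a median of -0.07, and among the 23 longer members 17 fell and 0 rose with a median of -0.56. All tested genes, divided at the same length, fell in 11.6% of 6831 shorter genes (13.4% rose) and in 17.2% of 4877 longer genes (12.6% rose). Gel/S 1 differed from the other libraries in its trend with length: the correlation of a gene's deviation from its mean with length was 0.37 there and between -0.16 and 0.05 in the other 5 libraries. In a fit that took out each library's trend with length and GC content, chosen after seeing the data, 26 members fell, 23 of them among the 24, and the median was -0.34. Over all genes in that fit 17.5% fell, against 13.9% in the main fit, so the higher count of members is not read as a stronger result. Pxn lost its call there (adjusted p = 0.052).

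**Figure D4:**
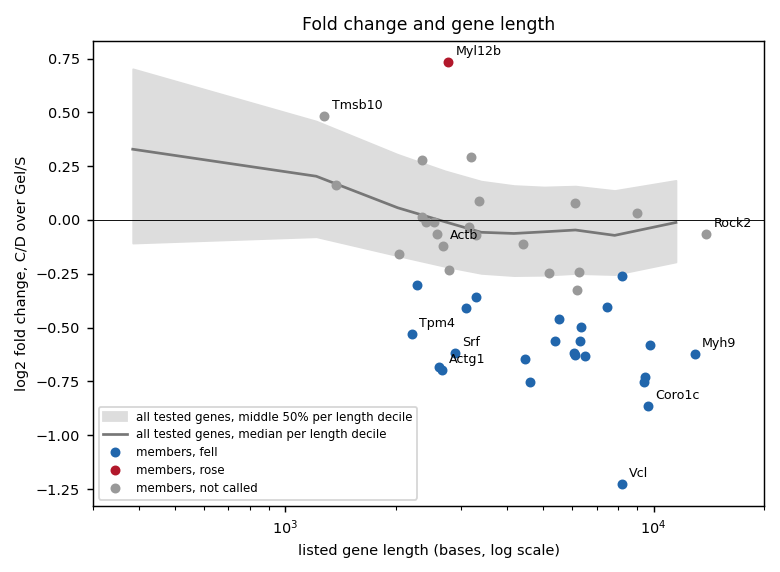
Log2 fold change (C/D over Gel/S, y axis) against listed gene length in bases (x axis, log scale); points are the 46 tested members coloured by call, and the line and band are the median and the middle 50% of all tested genes in each of 10 length classes. The fallen members lie at or under the lower edge of the band, from Tpm4 among the short genes to Myh9 among the long, and Tmsb10 is the shortest member.

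Other genes of the same machinery were taken from 8 lists of textbook actin, adhesion and SRF genes without the members. Their 139 genes include 99 that were tested, of which 43 fell (43.4%, against 13.9% of all tested genes), 2 rose (2.02%, against 13.1%) and 54 were not called, with a median of -0.25. These lists too were drawn up with earlier results known, and nothing is read from the shares. The number that fell depended on the libraries: it was 22 with C/D 1 or C/D 2 left out, 24 without Gel/S 3 and up to 50 when Gel/S 2 was left out. Over all tested genes the shares that fell in these fits were 7.70%, 7.48%, 8.58% and 17.8%.

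Known targets of SRF and its cofactors outside the members numbered 28, and 17 were tested: 9 fell, 1 rose, and the median was -0.33. Itga5, the alpha chain of the fibronectin receptor, went from 28.8 ± 1.95 FPKM in Gel/S to 19.5 ± 0.549 in C/D (SD, n = 3; log2 fold change -0.52, edgeR adjusted p = 0.00171). Wdr1, which helps cofilin take filaments apart, stood at -0.51 (adjusted p = 0.00241) and Tes, testin, at -0.41 (adjusted p = 0.00384). Pdlim7, a PDZ and LIM protein, was the 1 that rose, at 0.52 (adjusted p = 0.011), and is named for that; it was not called without C/D 1 or with limma on log2(TPM + 1). Tpm1, a tropomyosin, was not called, at 31.8 ± 1.47 FPKM in Gel/S and 30.8 ± 1.998 in C/D (SD, n = 3; log2 fold change -0.0023, edgeR adjusted p = 0.987), and is named beside the member tropomyosins after its value was seen. Cnn3, Myl9, Ctgf, Ankrd1 and Thbs1, SRF or YAP targets of mesenchymal cells, were at 0 in every library. The count of fallen targets was 5 without C/D 1 and 4 without C/D 2.

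The other nucleator lists fell in part. Of 5 tested Arp2/3 subunits 2 fell, Arpc4 at -0.75 (96.8 ± 12.9 to 55.6 ± 6.99 FPKM, SD, n = 3, edgeR adjusted p = 0.00122) and Arpc1b at -0.38 (adjusted p = 0.0156). Among WAVE, WASP and formin genes 6 of 17 fell and 0 rose, with the WAVE subunit Cyfip1 at -0.60 (adjusted p = 0.00254), the leukocyte formin Fmnl1 at -0.46 (adjusted p = 0.00402) and the cortactin relative Hcls1 at -0.35 (adjusted p = 0.0124). Leaving out 1 library gave 1 to 2 fallen Arp2/3 genes and 3 to 8 WAVE, WASP and formin genes. The counts were 1 Arp2/3 gene without Gel/S 3 or C/D 1, and 3 WAVE, WASP and formin genes without Gel/S 3 or any C/D library.

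A list of other crosslinkers and binding genes, not all of them crosslinkers, fell in 8 of 11 tested genes, 0 rose, and the median was -0.35. The 3 not called were Pls3 at -0.28 (adjusted p = 0.063), Sptbn1 at -0.13 (adjusted p = 0.422) and Lsp1 at 0.31 (adjusted p = 0.0651). Marcksl1, which binds actin at the membrane, went from 169 ± 8.05 to 84.6 ± 12.4 FPKM (SD, n = 3; log2 fold change -0.96, edgeR adjusted p = 0.000246), Iqgap1, a scaffold for Rac and Cdc42, stood at -0.67 (adjusted p = 0.00351) and the adducin Add3 at -0.59 (adjusted p = 0.00677). The adhesion adaptors fell in 7 of 16, with the Rac exchange factor Arhgef7 at -0.65 (adjusted p = 0.000442), leupaxin gene Lpxn at -0.38 (adjusted p = 0.00928) and PINCH1 gene Lims1 at -0.45 (adjusted p = 0.00992). Cortex genes fell in 3 of 5, Rdx (radixin) at -0.45, Epb41 at -0.45 and Epb41l2 at -0.31 (adjusted p = 0.0132, 0.0138 and 0.0295). Without 1 library the counts were 4 to 9 crosslinkers and binding genes, 3 to 9 adaptors and 0 to 4 cortex genes. The lowest of these came when C/D 1, C/D 2 or Gel/S 3 was left out. Crosslinkers and binding genes also dropped to 5 without Gel/S 1 or C/D 3, and adaptors to 4 without C/D 3.

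Filament turnover genes were divided: 6 of 17 fell, 1 rose, and the median was 0.06. Over all tested genes 13.9% fell and 13.1% rose. Cap1, which recycles monomers, went from 264 ± 11.0 to 174 ± 0.715 FPKM (SD, n = 3; log2 fold change -0.56, edgeR adjusted p = 0.00141) and Cotl1, which binds filaments in leukocytes, stood at -0.33 (adjusted p = 0.0111). Named after their values were seen, the capping genes Capza1 (-0.55, adjusted p = 0.0158) and Capza2 (-0.49, adjusted p = 0.025) fell too. So did Dstn (-0.34, adjusted p = 0.0128) and Limk1 (-0.34, adjusted p = 0.0433), while 10 genes of the list were not called, among them Cfl2 (0.28, adjusted p = 0.117). Ssh2, a phosphatase that activates cofilin, rose by 0.44 (adjusted p = 0.00351) and was not called with limma on log2(TPM + 1). Of 11 other myosin and light chain genes 2 fell and 0 rose, near or under the shares of all tested genes. The 2 were Myo1c at -0.60 (adjusted p = 0.00225) and Myh14 at -0.75 (adjusted p = 0.0091). Without 1 library 2 to 5 turnover genes and 2 to 4 myosin genes fell. The turnover count was 2 without C/D 1 and 3 without C/D 2 or without Gel/S 3, and 4 myosin genes fell without Gel/S 2.

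**Figure D5:**
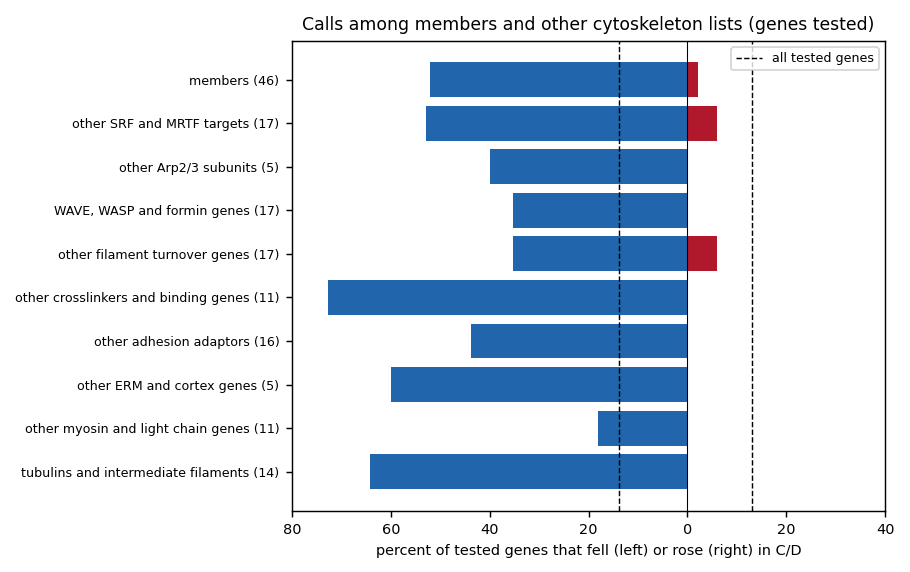
Percent of tested genes that fell (bars to the left) or rose (to the right) in C/D, for the members and 9 other cytoskeleton lists, with the number of genes tested in brackets; dashed lines mark all tested genes (13.9% fell, 13.1% rose). Members fell in 52.2% of tested genes, and the lists with the fewest fallen genes relative to their size are the other myosins, the filament turnover genes and the WAVE, WASP and formin genes.

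The authors' deposited table of their own comparison lists all 48 members and, in the authors' deposited table, 26 of them fell and 1 rose at an adjusted p under 0.05. The share of all genes called in that comparison was not counted here. These counts therefore have no background of their own, and nothing is read from them. All 24 members that fell here also fell in the authors' deposited table. Coro1a (adjusted p = 0.0138) and Rock1 (adjusted p = 0.04) fell and Tmsb10 rose (adjusted p = 0.0231) only in the authors' deposited table, and Myl12b, called here, had an adjusted p of 0.0549 in the authors' deposited table.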

How the data were processed

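Messenger RNA of 6 libraries was sequenced with a SMARTER mRNA-Seq kit, per the labels' protocols, and the build is GRCm38 (mm10) in the submitters' processing notes. The sources used here give no aligner, counter, annotation or strand setting, so overlapping genes cannot be told apart by strand. Raw counts per gene and FPKM values were made by the authors, per the file headers; the library total behind the FPKM is not the sum of the counts. Signal columns in the deposited table hold group means of scaled counts made by the authors, and its log2 fold changes, p-values and adjusted p-values are the authors' own, by a test that the table does not name.

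The table has 54532 entries. Date-like symbols (27) were restored from gene IDs, counts of 100 repeated symbols were summed, and 0 entries lacked a gene. Genes with a mean FPKM of at least 1 (11708) were fitted by edgeR 4.0.16 (quasi-likelihood, TMM factors, no covariates, R 4.3.3) with Benjamini-Hochberg adjustment over all of them and a threshold of 0.05. Positive log2 fold changes are higher in C/D, and SE was obtained by dividing the size of the log2 fold change by the root of its F statistic. At an unadjusted p under 0.05, 4800 genes passed. In simulated counts for C/D and Gel/S with 11708 genes, 70% of 100 genes changed 1.5-fold and 86% of 100 changed 2-fold were called, and 0.104% of 11508 unchanged genes. Simulated libraries of a group shared 1 mean per gene, with no trend of a whole library such as that of Gel/S 1. Far fewer genes changed than were called in the data, so these rates need not hold for the data. Near copies share at least 97% identity over 100 bases or more with the transcript (GENCODE M21), whose coordinates equal the table's for 47 of 48 members. Promoters are RefSeq's (GRCm38.p6).

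Some results are not reported here. The members and lists were chosen with earlier results of these data known. Values by library are given for the actins, SRF and its cofactors and the 3 members of each role with the smallest adjusted p; other lists give up to 3 genes past the threshold. Some genes were named after their values were seen, as stated beside them. Alternatives were other size factors, DESeq2 1.42.0, other filters, limma 3.58.1 on log2(FPKM + 1), log2(FPKM + 0.1) and log2(TPM + 1), a replicate block, leaving out each library, and, added after seeing the data, a length and GC correction (loess, span 0.5).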

Additional observations from a re-analysis of the deposited data

How the results depend on the processing

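With 3 libraries a group, the count of changed genes, 3163, ranged from 1804 to 4078 when 1 library was left out (1812, 1804 and 1960 with C/D 1, 2 or 3 left out, and 1892 with Gel/S 3 left out). Under 15 alternatives 0 of the 24 fallen members changed sign. The number that fell was 24 with DESeq2's size factors in edgeR and with filterByExpr, 25 with DESeq2, 28 with no filter on low values, 26 with the length and GC correction, 20 and 21 with limma on log2(FPKM + 1) and log2(FPKM + 0.1), 22 on log2(TPM + 1), and 19 to 27 without 1 library. The share of all genes fitted that fell moved as well. In the same order it was 14.0%, 14.3%, 14.2%, 9.38%, 17.5%, 12.6%, 12.7% and 12.9%, and 7.48% to 17.8% without 1 library. The number that rose, 1, was 3 with DESeq2, 2 with no filter and with the length and GC correction, 0 with limma on either FPKM scale or on TPM, and 0 to 2 without 1 library. Of all genes fitted, 13.1% rose with DESeq2, 7.29% with no filter and 13.5% with the length and GC correction. With limma 8.71%, 8.61% and 5.41% rose on the 2 FPKM scales and on TPM, and without 1 library 7.58% to 17.0% rose. On TPM the members' median was -0.44, the median of all tested genes -0.12 and the share of rises among all calls 29.5% (633 rose, 1510 fell) in place of 48.4%; without 1 library the members' median was -0.37 to -0.25. Of the 99 tested genes of the other actin lists 43 fell, against 28 and 29 with limma on the FPKM scales and 27 on TPM. The causes of these shifts were not tested.

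Same-numbered libraries did not deviate together (correlations -0.057, -0.059 and 0.045 over genes). Those of differently numbered libraries ran from -0.093 to 0.131. The numbers thus gave no sign of pairing, but these values cannot settle whether libraries were prepared in pairs. With the number as a block, 21 members fell, 0 rose and 2544 genes changed. Of all tested genes 11.1% fell and 10.6% rose in that fit.

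Members that changed sign were all uncalled. Cfl1 (0.02) gave -0.030 with no filter, -0.026 with the length and GC correction, -0.012 with filterByExpr, -0.024 on both FPKM scales, -0.12 on TPM and -0.074 to 0.095 without 1 library. Mkl2 (0.03) gave -0.015 with no filter, -0.0072 and -0.011 on log2(FPKM + 1) and log2(FPKM + 0.1), -0.084 on TPM and -0.0023 to 0.084 without 1 library. On TPM Mkl1 gave -0.046 and Myl12a -0.034, and the block gave 0.0045 for Pfn1. Without 1 library, Mkl1 ranged from -0.014 to 0.17, Myl12a from -0.026 to 0.21, Pfn1 from -0.14 to 0.12, Rock2 from -0.16 to 0.056, Actb from -0.25 to 0.024 and Capg from -0.10 to 0.085. Ilk, Cnn2 and Myl12b have the fewest counts, then Rhob (134 to 250 per library) and Vcl (140 to 699).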

Other observations

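Of 14 tested genes of tubulins and intermediate filaments, the other cytoskeletal systems of the cell, 9 fell (13.9% of all tested genes fell), 0 rose, and the median log2 fold change was -0.35. The fallen genes were 7 tubulins and the nuclear lamins Lmnb1 (-0.53, adjusted p = 0.0091) and Lmnb2 (-0.43, adjusted p = 0.00413). Vim, vimentin, the cytoplasmic intermediate filament gene of the list (-0.07, adjusted p = 0.605), and Lmna (-0.01, adjusted p = 0.946) were not called, and their groups overlapped. Tuba1a, an alpha tubulin, went from 37.1 ± 2.92 FPKM in Gel/S to 18.7 ± 1.62 in C/D (SD, n = 3; log2 fold change -0.95, edgeR adjusted p = 0.000174). The beta tubulins Tubb6 (114 to 72.7 FPKM, log2 fold change -0.61, adjusted p = 0.000934) and Tubb5 (337 to 222 FPKM, log2 fold change -0.56, adjusted p = 0.00162) also fell. Without 1 library 5 to 11 of these genes fell, the fewest without C/D 3.

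Osteoclasts are built from macrophages by fusion and resorb bone from an actin ring, and markers of that fate moved in both directions. Of 5 tested markers 2 rose, 1 fell and 2 were not called, where 13.1% of all tested genes rose and 13.9% fell. Dcstamp, needed for cell fusion, measured 30.7, 29.6 and 29.4 FPKM in Gel/S and 14.5, 14.2 and 16.1 in C/D (log2 fold change -0.96, SE 0.0851, adjusted p = 6.29e-05). Atp6v0d2, a proton pump subunit, rose from 5.80 ± 0.822 to 9.99 ± 0.599 FPKM (SD, n = 3; log2 fold change 0.83, edgeR adjusted p = 0.00122) and Acp5, the acid phosphatase TRAP, from 14.8 ± 1.08 to 20.8 ± 3.08 FPKM (log2 fold change 0.53, edgeR adjusted p = 0.00818). The summed FPKM of the list was 62.6 to 63.6 in Gel/S and 56.0 to 61.8 in C/D, and Calcr, the calcitonin receptor of mature osteoclasts, was at 0 in every library. Among macrophage markers the 1 that fell was Csf1r, the receptor for CSF1, at 550 ± 58.4 FPKM in Gel/S and 382 ± 12.9 in C/D (SD, n = 3; log2 fold change -0.48, edgeR adjusted p = 0.00736). Leaving out Gel/S 1 gave 3 fallen macrophage markers, and leaving out Gel/S 2 gave 4 that fell and 1 that rose.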
